A study of Mus musculus with 2 samples.

Results

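Mature neutrophils were picked out of the tumour cell suspensions of 2 groups of mice. A barcode counted as a mature neutrophil when S100a8 and S100a9, the calgranulin genes that fill the neutrophil cytosol, made up at least 1% of its UMIs (unique molecular identifiers, 1 for each captured RNA molecule). It also needed at least 200 genes, at most 20% mitochondrial UMIs, and Krt8 and Krt18, keratins of epithelial cells, at 1 UMI or less or under 0.1% of its UMIs. Camp, Ngp, Elane and Mpo, granule genes of early neutrophils, were limited to 2 UMIs, and Cd3d, Cd3e and Cd3g, T cell receptor subunits, to 0. This left 400 of 17473 barcodes, 130 of 9920 in the control library and 270 of 7553 in the other.

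The libraries were droplet single-cell RNA sequencing of mouse liver tumours, 1 named shCtrl (genotype label WT) and 1 named shSrsf10, for a short hairpin RNA against Srsf10, a splicing factor of the SR family. The series title asks how targeting this factor bears on immunity against hepatocellular carcinoma. The labels give no strain, age or number of pooled animals, and do not say which cells carried the hairpin. They also differ on the preparation: the design text names enzymatic digestion, a flow cytometry sort with no stated gate and a 5′ kit, and the sample protocol names a slow spin that leaves hepatocytes behind and a 3′ version 3 kit. Each group had 1 library, so no value below was checked against replicates, no test between the groups was made, and every difference is one between 2 libraries.

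Neutrophils are short-lived granulocytes made in the bone marrow, which package antimicrobial proteins into granules in a fixed order, leave for the blood as mature cells and enter inflamed tissue and tumours along chemokine gradients. In tumours they are known both for killing and antigen presentation after exposure to interferons and for a suppressive state with inhibitory ligands and raised chemokine output. They hold little RNA, so each cell gives few molecules in droplet sequencing.

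Most of the cells answered to the label. Of the markers not used by the rule, Csf3r (the receptor for the growth factor G-CSF), Cxcr2 (the receptor that guides neutrophils out of the marrow), G0s2 (an inhibitor of fat breakdown abundant in neutrophils) and Retnlg (a resistin-like protein of mature neutrophils) left at least 1 UMI in 124 of 130 shCtrl and 265 of 270 shSrsf10 cells. Ctsg and Ms4a3, genes of the promyelocyte stage that the rule did not use, had 0 UMIs. T cell markers had 1 UMI in shCtrl and 5 in shSrsf10, with the Cd3 genes held at 0 by the rule. B cell markers had 0 in both, and of the eosinophil markers Epx, Prg2, Il5ra and Ccr3 had 0. NK cell markers had 6 and 18 UMIs. Macrophage markers were more abundant, with 158 UMIs in shCtrl and 214 in shSrsf10, of which Apoe gave 141 and 200. Scaled as CPM, defined below, the macrophage list was at 1616 in shCtrl and 932 in shSrsf10. At least 1 UMI of 12 markers of other cells was seen in 10 of 130 shCtrl and 9 of 270 shSrsf10 cells. S100a8 and S100a9 took a median of 8.76% of a cell's UMIs in shCtrl (range 1.05 to 36.6) and 7.15% in shSrsf10 (range 1.00 to 36.3), which describes the choice of cells. Just inside the limit, from 1 to 2%, lay 16 and 35 cells with a median of 3 and 8 UMIs of the other 4 markers, and just outside, from 0.5 to 1%, lay 19 and 11 barcodes with 4 and 9.

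The neutrophils were shallow, with a median of 682 UMIs and 388.5 genes in shCtrl and 794.5 UMIs and 403 genes in shSrsf10, and 97793 and 229617 UMIs in all. Both files stop at 500 UMIs per barcode, and the lower quartile of the neutrophils was 578 UMIs in shCtrl and 654 in shSrsf10, so cells with less RNA than that limit could not be counted. RNA of liver and tumour cells was present and unequal: the 8 epithelial and hepatocyte markers summed to 2822 CPM (UMIs scaled to a common total over the neutrophils of each library) in shCtrl and 1097 CPM in shSrsf10. At least 1 UMI of Alb, Afp, Apoa1, Ttr or Trf was seen in 102 of 130 shCtrl neutrophils (78.5%, 70.4 to 85.2) and 114 of 270 shSrsf10 neutrophils (42.2%, 36.3 to 48.4). Ribosomal protein genes took 15.1% against 7.82% of UMIs and mitochondrial genes 0.950% against 0.286%, again with shCtrl higher. Of all barcodes, 67 sequences occurred in both libraries, and none of these was a neutrophil in both.

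Neutrophils made up a larger share of the shSrsf10 suspension. They were 1.36% (1.14 to 1.62) of the 9542 shCtrl barcodes that passed the gene and mitochondrial limits and 3.61% (3.20 to 4.05) of the 7486 in shSrsf10, a fold of 2.65 (2.14 to 3.29). Among keratin-low barcodes alone, the share was 6.07% (5.09 to 7.16) of 2143 against 8.89% (7.90 to 9.96) of 3036, a fold of 1.47 (1.18 to 1.82). Every interval here is an exact one at 95% and covers counting error only, not the spread between mice, sorts or droplet runs. A share depends on the other cells of the suspension, and the sort gate, which the labels do not give, can set it.

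Across the 1324 genes with at least 30 UMIs, 372 were at least 1.5-fold higher in shSrsf10, which is 28.1%, and 281 at least 1.5-fold lower, which is 21.2%, with a median log2 ratio of 0.17. With ratios centred on that median, 295 were higher and 356 lower, so 45.3% of the genes past 1.5-fold were higher in place of 57.0%. A log2 ratio here is always that of CPM, shSrsf10 over shCtrl. The intervals of CPM and of log2 ratios take each UMI as independent. They therefore leave out the spread between cells too, and are too narrow where few cells hold much of a gene's UMIs. These shares are the background for every count below. A gene with few control UMIs enters the 30 UMIs mostly through the library where it is high. A count of higher genes among those measured is thus a description. The UMIs of members under the limit are given below for the type I interferon, interferon gamma and tumour-adapted lists. In other lists, the summed log2 ratio of such members was 0.72 for MHC class I, 3.38 for MHC class II, 0.31 for adhesion and 2.41 for chemokine genes. It was -0.93 for receptors of microbes and antibody, -0.55 for oxidase, -0.83 for hypoxia, -0.46 for glycolysis and -1.04 for stress genes. These sums rest on few UMIs, and those of the remaining lists are not given. Ratios of near-identical gene copies (the H2-Q genes, the Bcl2a1 genes, Ifit3 and Ifit3b) are uncertain, since reads of 1 copy can be assigned to another.

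Srsf10 itself, on chromosome 4, was too rare in neutrophils to compare. It had 4 UMIs in 4 shCtrl cells and 8 UMIs in 8 shSrsf10 cells, which is 40.9 CPM in shCtrl and 34.8 CPM in shSrsf10, a log2 ratio of -0.23 (-2.13 to 1.95). In the keratin-high cells of the same libraries its level was 45.9 and 20.1 CPM. Of the 16 SR splicing factors and their kinases on the list, 4 had the 30 UMIs over both libraries that a ratio was given for. Srsf3 was lower, at a log2 ratio of -0.68 (-1.44 to 0.09), and Srsf5, Srsf11 and Tra2a lay within 1.5-fold.

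**Figure D1:**
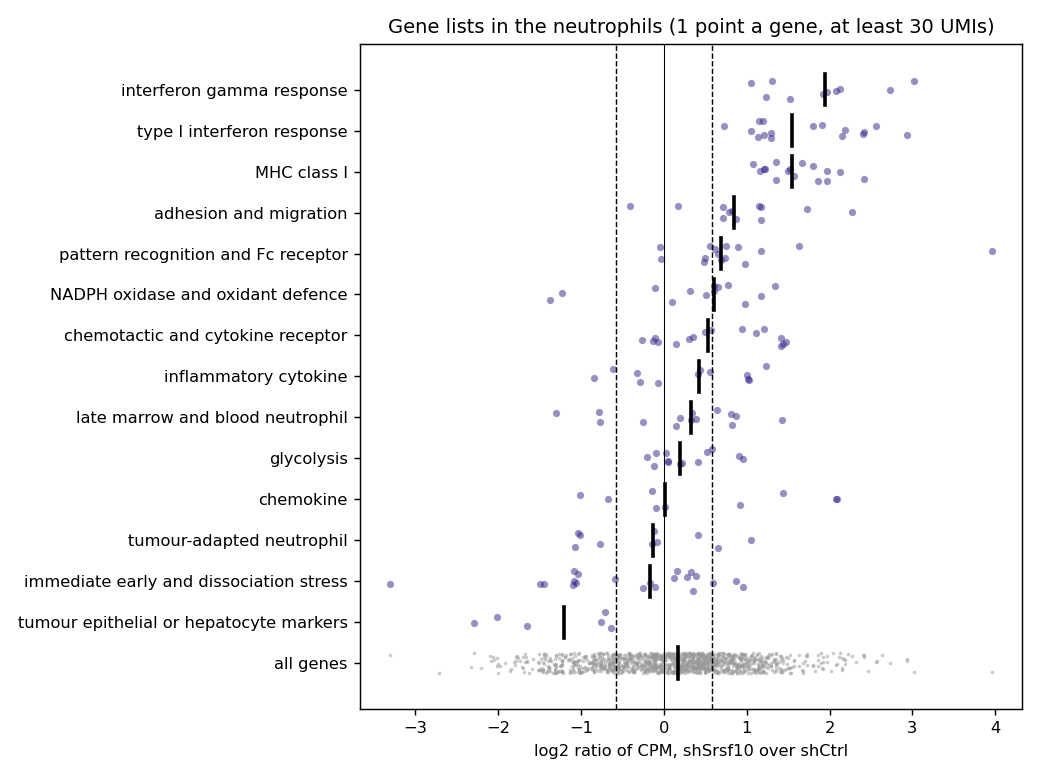
Log2 ratio of CPM (x axis, shSrsf10 over shCtrl) of each gene with at least 30 UMIs in the neutrophils, 1 point a gene, by gene list (y axis), with all 1324 genes at the bottom in grey. Black bars are medians and dashed lines mark 1.5-fold. The type I interferon, interferon gamma and MHC class I points lie to the right of the upper dashed line, and the epithelial and hepatocyte markers to the left of the lower one. Gbp7, with no shCtrl UMI, is drawn at its bound from 3 counts.

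Type I interferons are antiviral cytokines that signal through Ifnar1 and Ifnar2, and their target genes stood higher in the shSrsf10 neutrophils. Of 25 such genes analysed, 16 had 30 UMIs, 16 of these were at least 1.5-fold higher and none was lower, with a median log2 ratio of 1.55 against 0.17 over all genes. Together the 25 summed to 7342 CPM in shCtrl and 20177 CPM in shSrsf10. The members under 30 UMIs, Ifit3 and Xaf1 among them, had 12 UMIs in shCtrl and 116 in shSrsf10. Ifi47 had none in either library.

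Isg15, a ubiquitin-like protein attached to other proteins during antiviral defence, was the most abundant member in shSrsf10. It had 135 UMIs in 50 shCtrl cells and 1099 UMIs in 207 shSrsf10 cells, that is 1380.5 CPM (1157 to 1634) in shCtrl and 4786 CPM (4507 to 5078) in shSrsf10, a log2 ratio of 1.79 (1.53 to 2.06). Ifitm1 and Ifitm3, membrane proteins that hinder virus entry, followed with 1851 CPM in shCtrl and 4068 CPM in shSrsf10 and 1513 CPM in shCtrl and 3702 CPM in shSrsf10, at log2 ratios of 1.14 (0.90 to 1.37) and 1.29 (1.04 to 1.55). These common members were already well expressed in the control neutrophils.

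Several members with few control UMIs had larger ratios. Oas3, of the oligoadenylate synthetase family that senses viral RNA, stood at 157 against 20.5 CPM in shSrsf10 and shCtrl, a log2 ratio of 2.94 (0.98 to 6.04), on only 2 control UMIs. Zbp1, a sensor of nucleic acid in the Z form, was at 544 against 92.0 CPM, a ratio of 2.56 (1.59 to 3.73). Irf7, the transcription factor that amplifies the interferon response, was at 327 against 61.4 CPM, a ratio of 2.41 (1.22 to 3.90). Rsad2 (viperin, an antiviral enzyme) reached 701 against 133 CPM with a ratio of 2.40 (1.58 to 3.34), and Rtp4, an interferon-induced regulator of the response, 501 against 112 CPM with 2.15 (1.26 to 3.20). The smallest ratio of the list was that of Bst2 (tetherin, which holds budding virus at the membrane), at 0.73 with an interval that held 0. Ifnar2, a chain of the type I receptor, was at a ratio of 1.11, and its partner Ifnar1 had 11 and 12 UMIs, under the limit.

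**Figure D2:**
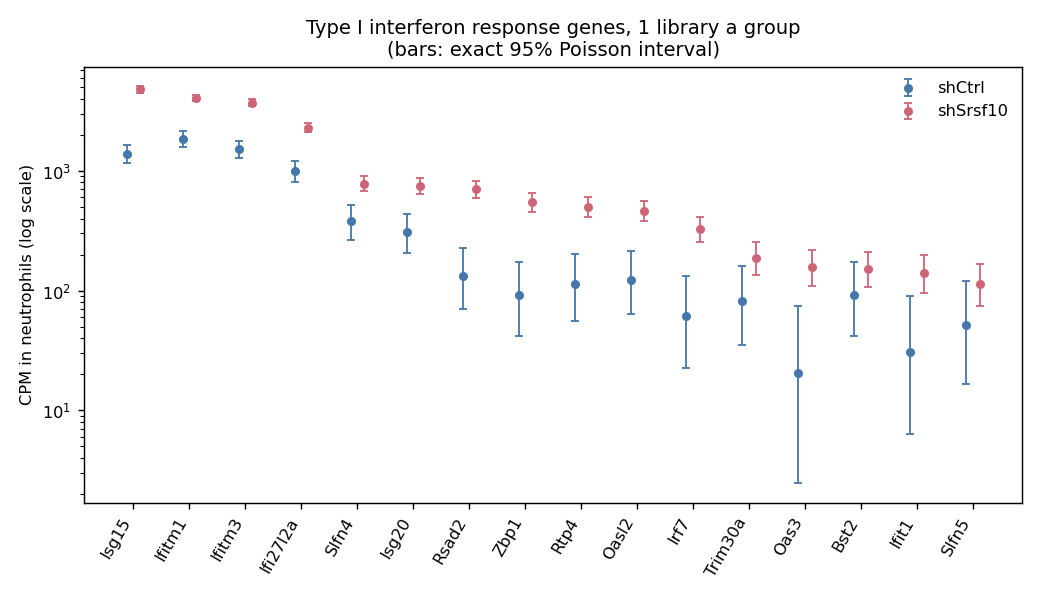
CPM in the neutrophils (y axis, log scale) of the 16 type I interferon response genes with at least 30 UMIs (x axis), 1 library a group, with exact 95% Poisson intervals that cover counting error only. Each shSrsf10 point lies above its shCtrl point, from Isg15 at 1380.5 and 4786 CPM down to the rare genes, where the shCtrl intervals are wide.

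The promoters of several of these genes hold a short sequence known to bind interferon-activated transcription factors, which is called the interferon-stimulated response element. It was searched on both strands as GAAA, any 2 bases and GAAA again. RefSeq promoters (GRCm38.p6) were found for 13 of the 16 measured type I genes, and 7 of these 13 (53.8%) held it within 250 bases before the start: Isg15, Ifit1, Rsad2, Oas3, Slfn5, Trim30a and Bst2. It occurred in 936 of 27025 genes (3.46%) over the same length. In the interferon gamma list 4 of 9 genes with a promoter held it (Gbp2, Gbp7, Irgm1 and Cxcl10), in the MHC class I list 3 of 15 (H2-T22, H2-T23 and B2m), in the stress list 1 of 17 and in the inflammatory cytokine list 0 of 8. The gamma-activated site, TTCNNNGAA, which reads the same on both strands, occurred in 8.13% of all genes, 2 of 13 type I genes and 3 of 9 interferon gamma genes. A match is a stretch of letters and no evidence of binding in these cells.

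The 150 bases before the start of 6 genes are shown because they had high ratios, Fcgr4 as a gene outside the interferon lists, and hold the element in that stretch. Each is read 5′ to 3′ along the gene's strand, with the matches in capitals.
Isg15, chr4:156200819-156200968, - strand: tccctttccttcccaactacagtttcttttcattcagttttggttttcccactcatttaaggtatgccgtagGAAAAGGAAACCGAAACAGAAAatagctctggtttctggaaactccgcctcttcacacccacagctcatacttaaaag
Rsad2, chr12:26456453-26456602, - strand: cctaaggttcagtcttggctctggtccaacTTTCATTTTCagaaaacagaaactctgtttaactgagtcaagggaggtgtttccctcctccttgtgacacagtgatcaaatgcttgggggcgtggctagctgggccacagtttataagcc
Ifit1, chr19:34640739-34640888, + strand: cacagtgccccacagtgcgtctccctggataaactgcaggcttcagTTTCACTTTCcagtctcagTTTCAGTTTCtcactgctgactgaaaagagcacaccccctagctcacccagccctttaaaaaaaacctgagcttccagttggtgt
Gbp2, chr3:142620513-142620662, + strand: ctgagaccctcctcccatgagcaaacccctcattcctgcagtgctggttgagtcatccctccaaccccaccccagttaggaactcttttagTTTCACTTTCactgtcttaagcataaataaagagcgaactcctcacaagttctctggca
Gbp7, chr3:142530186-142530335, + strand: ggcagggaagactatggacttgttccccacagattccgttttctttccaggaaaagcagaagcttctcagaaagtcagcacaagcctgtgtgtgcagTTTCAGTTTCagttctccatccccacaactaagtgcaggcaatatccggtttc
Fcgr4, chr1:171018776-171018925, + strand: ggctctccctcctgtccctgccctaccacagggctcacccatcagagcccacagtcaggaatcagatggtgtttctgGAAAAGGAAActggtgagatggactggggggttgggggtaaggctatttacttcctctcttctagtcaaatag
Isg15 has 3 overlapping matches that begin between 78 and 66 bases before the start. Ifit1 has 2, which begin 104 and 85 bases before it. Rsad2, Gbp2, Gbp7 and Fcgr4 have 1 each, which begin 120, 59, 53 and 73 bases before the start.

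Genes induced by interferon gamma, the cytokine of T and NK cells, also stood higher. Of 21 on the list, 10 had 30 UMIs, 10 of these were at least 1.5-fold higher and none lower, with a median of 1.94. Those under the limit had 12 UMIs in shCtrl and 62 in shSrsf10. Gbp2, a guanylate-binding GTPase that attacks vacuoles holding microbes, had 14 UMIs in 9 shCtrl cells and 218 UMIs in 89 shSrsf10 cells, that is 143 CPM (78.3 to 240.2) in shCtrl and 949 CPM (828 to 1084) in shSrsf10, a log2 ratio of 2.73 (1.95 to 3.62). Gbp7, of the same family, had 57 UMIs in 42 shSrsf10 cells and 0 in shCtrl, so it was at least 8.09-fold higher, taken against a floor of 3 counts over the control neutrophils. The transcription factor Irf1 was at 579 against 153 CPM, a ratio of 1.92 (1.14 to 2.79). Cxcl10, a chemokine that draws T cells, was at 775 against 184 CPM, a ratio of 2.07 (1.37 to 2.86), but 1 of the 4 shCtrl cells with it held 77.8% of the shCtrl UMIs. Cd274, which encodes the inhibitory ligand PD-L1, was higher too, at 636 against 307 CPM and a ratio of 1.05 (0.48 to 1.67). The receptor chain Ifngr1 had 7 and 22 UMIs, under the limit, and Ifngr2 was within 1.5-fold at 0.15.

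MHC class I genes, whose products present peptides to CD8 T cells, stood higher as well. Of 18 listed, 16 had 30 UMIs, 16 of these were at least 1.5-fold higher and none lower, with a median of 1.54, and the list summed to 6207 CPM in shCtrl and 19258 CPM in shSrsf10. B2m, the light chain shared by all class I molecules, was at 1769 CPM in shCtrl and 6176 CPM in shSrsf10, a log2 ratio of 1.80. The heavy chain H2-D1 was at 1871 and 5561 CPM, a ratio of 1.57, H2-K1 at 961 and 2722 CPM, and H2-Q4 was at 2.41 (0.97 to 4.34) on 4 control UMIs. The immunoproteasome subunits that cut peptides for class I, Psmb8, Psmb9 and Psmb10, had ratios of 1.97 (1.30 to 2.71), 2.13 (1.43 to 2.92) and 1.96 (0.75 to 3.47). The peptide transporter genes Tap1 and Tap2 and the loading factor Tapbp were at 1.52, 1.66 and 1.86. Psmb8, Psmb9 and Tap1 stand on both this list and the interferon gamma list.

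MHC class II genes, used by professional antigen-presenting cells, were sparse in the neutrophils. Of 12, 5 had 30 UMIs, with 3 higher and 1 lower. Ctss, cathepsin S, which trims the chain that blocks the class II groove, was at 549 against 133 CPM, a ratio of 2.05 (1.22 to 2.99). Cd74, that blocking chain, was at 470.3 against 133 CPM, with 32.4% of its shSrsf10 UMIs in 1 cell. H2-Ab1 had 5 UMIs in 5 shCtrl cells and 28 UMIs in 12 shSrsf10 cells. Cd80, a costimulator of T cells, was the lower member, at 209 against 368 CPM and a ratio of -0.82 (-1.47 to -0.15).

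The interferon and MHC lists were also measured in other choices of cells and scale, since the epithelial and hepatocyte markers differed too, at 2822 CPM in shCtrl and 1097 CPM in shSrsf10. In the 28 shCtrl and 156 shSrsf10 neutrophils with no UMI of Alb, Afp, Apoa1, Ttr or Trf, the medians were 2.06 over 11 type I genes, 1.94 over 9 interferon gamma genes and 1.44 over 12 MHC class I genes. Of the members counted above, 14 of 16, 9 of 10 and 15 of 16 were at a lower CPM in keratin-high cells of both libraries than in the neutrophils. With CPM taken without S100a8, S100a9, mitochondrial and ribosomal protein genes, the medians were 1.35, 1.75 and 1.35, and 15 of 16, 10 of 10 and 16 of 16 stayed at least 1.5-fold higher. Ly6c2, a surface marker of inflammatory monocytes that interferon also induces, had 7 UMIs in 6 shCtrl cells and 54 UMIs in 31 shSrsf10 cells, while the other 5 monocyte markers summed to 20 and 23 UMIs. The part of stray monocyte RNA in these lists was not tested.

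Receptors for microbes and antibody stood higher. Of 17 analysed, 15 had 30 UMIs, 10 were at least 1.5-fold higher and none lower, with a median of 0.69. With ratios centred on the median of all genes, 5 of 15 were at least 1.5-fold higher. In the neutrophils with no UMI of Alb, Afp, Apoa1, Ttr or Trf, 5 of 12 were higher, with a median of 0.43. Over all genes measured in those cells, 249 of 685 were higher, with a median of 0.22, so the list stood little above that background. Fcgr4, an activating receptor for IgG that mouse neutrophils carry, lies on chromosome 1 and was nearly absent from the control cells. It had 3 UMIs in 2 shCtrl cells and 110 UMIs in 82 shSrsf10 cells, that is 30.7 CPM (6.33 to 89.7) in shCtrl and 479 CPM (394 to 577) in shSrsf10, a log2 ratio of 3.96 (2.38 to 6.26). Fcer1g, the signalling chain it needs, was abundant in both at 2935 and 4503 CPM, a ratio of 0.62. Fcgr3, a related activating receptor, was at 0.98, and Fcgr2b, the inhibitory one, at 0.49 with an interval that held 0.

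Cd14, the co-receptor for bacterial lipopolysaccharide, had 147 UMIs in 64 shCtrl cells and 1071 UMIs in 205 shSrsf10 cells, that is 1503 CPM (1270 to 1767) in shCtrl and 4664 CPM (4389 to 4952) in shSrsf10, a log2 ratio of 1.63 (1.38 to 1.89). Trem1, which amplifies inflammatory signals, was at 0.89, the inhibitory receptor Pilra at 1.17 (0.60 to 1.79), and Clec4d, Clec4n and Clec4e, C-type lectins that bind microbial sugars and lipids, between 0.56 and 0.74. The inflammasome sensor Nlrp3 and the inhibitory receptor Pirb lay within 1.5-fold, at -0.05 and -0.04, and Tlr4, which signals with Cd14, had 13 and 16 UMIs.

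Adhesion and movement genes gave 10 higher and 0 lower of 12 measured, out of 16 listed, with a median of 0.84. Itgal, the alpha chain of the integrin LFA-1, was at 148 against 30.7 CPM, a ratio of 2.27 (0.60 to 4.62) on 3 control UMIs. Cd47, the signal that restrains engulfment, was at 270.0 against 81.8 CPM, a ratio of 1.72, Icam1, an integrin ligand, at 1.17 (0.18 to 2.32), and Rac2, the GTPase that drives neutrophil movement and oxidase assembly, at 1.17 (0.73 to 1.64). Itgam, the alpha chain of Mac-1, and Cd44 were within 1.5-fold, at -0.41 and 0.17. Of the oxidase and oxidant defence genes, 7 of 13 were higher and 2 lower, the higher led by Ncf4, a cytosolic oxidase subunit, at 1.33 (0.48 to 2.31), and the lower being Hmox1, which breaks down haem, at -1.38 (-2.35 to -0.41) and Rac1 at -1.23 (-2.23 to -0.23).

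Among receptors for chemokines, complement and cytokines, 7 of 16 measured were higher and none lower, of 24 listed, with a median of 0.53. The receptors that place a neutrophil in the body lay within 1.5-fold, Cxcr2 only just. Cxcr2 was at 215 CPM in shCtrl and 318 CPM in shSrsf10, a log2 ratio of 0.57 (-0.15 to 1.34). Cxcr4, which returns ageing neutrophils to the marrow, was at 368 and 335 CPM, a ratio of -0.13 (-0.72 to 0.48). Csf3r was at 961 and 1189 CPM, a ratio of 0.31 (-0.04 to 0.66). Each of these intervals held 0, but they are wide and do not show equal levels. Under the alternatives the Cxcr2 ratio was between 0.069 and 0.76, that of Cxcr4 between -0.40 and 0.88 and that of Csf3r between 0.11 and 0.70. Each of the 3 thus passed 1.5-fold under at least 1 alternative. The receptors with the largest ratios were C5ar1, for the complement fragment C5a, at 1.48 (0.96 to 2.02), Ccrl2, which presents the attractant chemerin, at 1.44 (1.14 to 1.75), Il1r2, the decoy receptor for interleukin 1, at 1.41 (1.18 to 1.65), and Tnfrsf1a, the death-domain receptor for TNF, at 1.41 (0.72 to 2.17).

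Inflammatory cytokine genes differed in direction. Of 18, 12 were measured, with 4 higher and 2 lower. Il1b, interleukin 1 beta, was the most abundant of them, with 462 UMIs in 101 shCtrl cells and 2192 UMIs in 261 shSrsf10 cells, that is 4724 CPM (4303 to 5175) in shCtrl and 9546 CPM (9151 to 9955) in shSrsf10, a ratio of 1.01 (0.87 to 1.16). Nfkbia, the inhibitor that NF-kB induces against itself, was at 1.03 (0.81 to 1.25), and Ptgs2, the inducible prostaglandin synthase, at 1.23 (0.13 to 2.53). The lower members were Tnf at -0.84 (-1.85 to 0.20) and Osm, oncostatin M, at -0.62, and both intervals held 0. Il1rn, the natural antagonist of interleukin 1, lay at -0.32.

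Chemokine genes were split. Cxcl2, a Cxcr2 ligand and the most abundant chemokine here, was at 6115 CPM in shCtrl and 11563 CPM in shSrsf10, a ratio of 0.92, and Cxcl1, of the same group, at 2.09 (0.41 to 4.45) on 3 control UMIs. Ccl4, a chemokine that draws lymphocytes and monocytes, went the other way, with 231 UMIs in 38 shCtrl cells and 268 UMIs in 48 shSrsf10 cells, a ratio of -1.02 (-1.28 to -0.76). That ratio was -0.35, within 1.5-fold, in cells with an S100a8 and S100a9 share of at least 5%, and -0.58, also within it, with no keratin limit. The related Ccl3 lay within 1.5-fold at -0.14. Ccl5 was lower at -0.67, but all 36 of its shCtrl UMIs lay in 1 cell. Cxcl5, Ccl7 and Ccl22 had no UMI in either library. Of 16 chemokine list genes, 9 were measured, 4 higher and 2 lower, with a median of 0.02. The 4 higher were Cxcl1, Cxcl2, Cxcl10 and Ccrl2. Ccrl2 is a receptor, counted on the receptor list too, and Cxcl10 stands on the interferon gamma list as well.

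Genes that mark maturity were mixed. Of 16 genes of late marrow and blood neutrophils, 14 were measured, 5 higher and 3 lower, with a median of 0.33. The lower ones were Retnlg, at 5225 CPM (4782 to 5699) in shCtrl and 3053 CPM (2831 to 3288) in shSrsf10 and a ratio of -0.78 (-0.94 to -0.61), Lcn2, which binds bacterial iron carriers, at a ratio of -0.78, and Wfdc21 at -1.30 (-1.71 to -0.89). A single shCtrl cell held 21.1% of the library's Retnlg UMIs, and in cells with S100a8 and S100a9 at 1 to 5% of UMIs the Retnlg ratio was 0.79. Stfa2l1, a stefin protease inhibitor of neutrophils, was the highest, at 1.43 (0.91 to 1.97). Mmp8 and Mmp9, the collagenase and gelatinase of late granules, were within 1.5-fold at 0.15 and -0.25.

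Of 18 genes linked to neutrophils adapted to tumours, 10 were measured, 2 higher (Cd274 and Clec4n) and 4 lower, with a median of -0.13. The lower ones were Ccl4, Tnfrsf23 (a decoy receptor of the TRAIL family) at -1.07 (-1.89 to -0.25), Ctsb (cathepsin B) at -0.77 and Jun at -1.04 (-1.82 to -0.25). The 8 members under the limit had 47 and 53 UMIs, a summed log2 ratio of -1.06. Siglecf, a marker of one such state in mouse tumours, had 3 and 2 UMIs, Vegfa, the vessel growth factor, 12 and 11, and Spp1, osteopontin, 11 and 6. Of 16 genes tied to suppressive myeloid cells, 8 were measured, with 4 higher (Ptgs2, Cd274, Il1b and Clec4d) and none lower. Arg1, the arginase of suppressive myeloid cells, had 0 and 1 UMI, Nos2 1 and 0, and Il10 0 in both.

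Most energy and survival genes lay within 1.5-fold. Of 13 measured glycolysis genes, of 19, 2 were higher and none lower, Slc16a3, a lactate exporter, at 0.91 (0.53 to 1.30) and Slc2a1, the glucose transporter GLUT1, at 0.95 (-0.01 to 2.04) on 11 control UMIs. Ldha, lactate dehydrogenase A, was at 419 CPM in shCtrl and 427 CPM in shSrsf10, a ratio of 0.03 (-0.51 to 0.59), and Hk2, hexokinase, had 6 and 18 UMIs. Of 9 measured hypoxia genes 2 were higher and 1 lower. Of 12 measured survival genes 5 were higher and none lower, led by the death receptor Fas at 2.31 (0.65 to 4.66) on 3 control UMIs, followed by Birc3, an inhibitor of apoptosis, at 0.93 (0.20 to 1.73). Mcl1, on which neutrophil lifespan depends, was at -0.32 (-0.74 to 0.11). Of 13 measured myeloid transcription factors, 2 were higher, Spi1 (PU.1) at 1.42 (1.03 to 1.83) and Relb at 1.04 (-0.25 to 2.60), and 4 lower, with Klf2 at -1.50 (-2.20 to -0.81) and Cebpb at -1.02 (-1.75 to -0.27).

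Outside the lists, the named genes with high ratios were Chil1, a chitinase-like lectin, at 370.2 against 81.8 CPM and a ratio of 2.18 (1.13 to 3.44), Cwc25, a spliceosome-associated factor, and Cdc42ep2, an effector of the GTPase Cdc42, both at 2.15 (0.83 to 3.83), Tspan13, a tetraspanin, at 2.02 (0.81 to 3.52) and Hist1h1c, a linker histone, at 1.92 (0.92 to 3.10). These rest on 5 to 9 control UMIs each. They complete the 12 highest with Gbp7, Zbp1, Rtp4, Psmb8, Psmb9, Psmb10 and Ctss.

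The genes at the low end included liver products, ribosomal and mitochondrial genes. Cdk8, a kinase of the Mediator complex, was one of the lowest genes, with 139 UMIs in 63 shCtrl cells and 65 UMIs in 53 shSrsf10 cells, that is 1421 CPM (1195 to 1678) in shCtrl and 283 CPM (218 to 361) in shSrsf10, a ratio of -2.33 (-2.78 to -1.89). Its ratio was also below 0 in the monocyte-marked, Cd3-marked and keratin-high cells, at -2.44, -1.73 and -1.14. Of 8 epithelial and hepatocyte markers, 6 were measured and all 6 were lower, with a median of -1.21. Ttr and Afp, transthyretin and alpha-fetoprotein of liver and tumour cells, were at -2.30 (-2.95 to -1.67) and -2.01 (-2.79 to -1.27). Bri3 and Snrpe, a core protein of the spliceosome, were at -2.20 and -2.06, Acsl1 and Dbi, which activate and bind fatty acyl-CoA, at -1.98 and -1.85, and Atp5g2 and Atp5g3, subunits of ATP synthase, at -1.78 and -1.69. Nme1, a nucleotide kinase, Ncl, nucleolin, and Camk1d, a calcium-dependent kinase, lay between -1.85 and -1.66. Of 79 measured ribosomal protein genes, 63 were at least 1.5-fold lower and none higher, with a median of -0.96, and all 8 mitochondrial genes were lower, with a median of -1.73. Leaving out genes with a higher CPM in keratin-high cells of either library left 322 higher and 104 lower genes, against 372 and 281 among all genes. The neutrophil CPM enters both this choice and the ratio, so these counts are not independent of the choice.

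Genes of tissue digestion stress stood in both directions, more of them lower. Of 21 measured of 24, 3 were higher and 9 lower, with a median of -0.16. The heat shock proteins Hsp90aa1 and Hspa8, both chaperones, were lower: Hsp90aa1 was at 726 CPM in shCtrl and 266 CPM in shSrsf10, a ratio of -1.45 (-1.97 to -0.94), and Hspa8 at -1.09. Hspa1a, the inducible chaperone, was at -3.30, but it was seen in 7 and 4 cells, and 1 cell held 31.0% of its shCtrl UMIs. Of the immediate early genes, Klf2, Ier5, Jund, Jun and Egr1 were lower at -1.50, -1.09, -1.08, -1.04 and -0.59, while Btg2, Ier3 and Junb were higher at 0.95, 0.87 and 0.60. Fos lay within 1.5-fold, at -0.25. In the 15 and 37 cells with at least 500 genes, the list median was 0.77. Among members with at least 100 UMIs, 3 were higher and 2 lower, with a median of 0.34. The whole list summed to 11524 CPM in shCtrl and 12569 CPM in shSrsf10. At 500 UMIs a cell, it took a median of 1% and 1.2% of UMIs, so the list as a sum was not lower in shSrsf10.

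After each cell was thinned to 500 UMIs, so that depth was equal, the differences could be read as shares of cells. A UMI of Isg15 was seen in 35.4% (27.2 to 44.2) of the shCtrl and 68.9% (63.0 to 74.4) of the shSrsf10 neutrophils. In the same order of libraries, the shares were 5.38% and 26.3% for Gbp2 and 1.54% (0.187 to 5.45) and 21.5% (16.7 to 26.9) for Fcgr4. These genes were thus found in more shSrsf10 neutrophils, not only in a few cells with more copies. The share was 71.5% (63.0 to 79.1) and 93.0% (89.2 to 95.7) for Il1b, 43.8% (35.2 to 52.8) and 69.3% (63.4 to 74.7) for Cd14 and 52.3% (43.4 to 61.1) and 90.4% (86.2 to 93.6) for B2m. Asprv1, an aspartic protease that mature neutrophils express, chosen after its values were seen, was at 23.1% (16.1 to 31.3) and 54.1% (47.9 to 60.1). Ccl4, at 26.9% (19.5 to 35.4) and 14.8% (10.8 to 19.6), and Cdk8, at 40.8% (32.2 to 49.7) and 12.6% (8.88 to 17.2), ran the other way. The intervals of Retnlg overlapped, at 40.8% (32.2 to 49.7) and 45.2% (39.1 to 51.3).

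The background for these shares came from the keratin-high cells, thinned alike from median depths of 16329 and 25318 UMIs, with 1500 cells drawn from each library. Isg15 was seen in 1.53% of the shCtrl and 2.13% of the shSrsf10 keratin-high cells, Fcgr4 in 0.133% and 0.133%, Il1b in 0.667% and 0.600%, Cd14 in 2.40% and 2.33%, Gbp2 in 0.200% and 2.67%, Ccl4 in 0.533% and 0.867%, Asprv1 in 0.133% and 0.0667% and Retnlg in 0% and 0.267%. A count of 0 in 1500 cells, that of Retnlg in shCtrl, allows a share of cells with a UMI at this depth of up to 0.2% on a floor of 3 counts and 0.246% on the exact interval. All lay under the neutrophil shares of the same library. B2m, which most cells express, was at 21.0% and 42.0%, and Cdk8 at 10.9% and 5.67%. Without thinning, Isg15 was seen in 38.5% and 76.7%, Fcgr4 in 1.54% and 30.4%, and Il1b in 77.7% and 96.7% of shCtrl and shSrsf10 neutrophils.

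**Figure D3:**
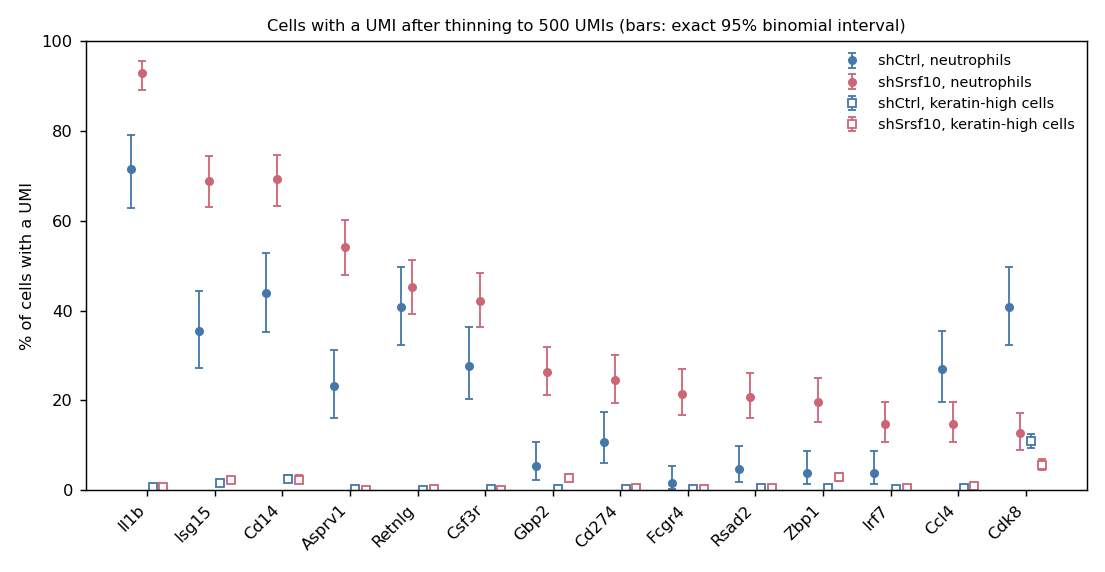
Percent of cells with at least 1 UMI of each gene (y axis) after thinning each cell to 500 UMIs, in neutrophils (filled circles, 130 and 270 cells) and keratin-high cells (open squares, 1500 a library), with exact 95% binomial intervals that cover counting error only. The shSrsf10 neutrophil points lie above the shCtrl ones for Il1b, Isg15, Cd14, Asprv1, Gbp2, Fcgr4, Rsad2, Zbp1 and Irf7, and below for Ccl4 and Cdk8.

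Interferon-induced genes took a larger part of the UMIs of single shSrsf10 neutrophils. At 500 UMIs, the type I list took a median of 0.6% of a cell's UMIs in shCtrl (quartiles 0.2 and 1.0) and 1.8% in shSrsf10 (quartiles 1.0 and 2.8). No UMI of the list was seen in 23 shCtrl cells (17.7%) and 4 shSrsf10 cells (1.48%), and the median number of its genes seen in a cell was 2 and 4. A UMI of so long a list is no mark of an interferon response by itself, since its sum in keratin-high cells was 3267 CPM in shCtrl and 4144 CPM in shSrsf10. The interferon gamma list was at 0 in 80 shCtrl cells (61.5%) and 51 shSrsf10 cells (18.9%). The MHC class I list took a median of 0.6% and 1.8%, and every shSrsf10 neutrophil had at least 0.2%, while 16 shCtrl cells had none. The highest cells, at 5.2% and 12.2% for the type I list, show that both libraries held a range.

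**Figure D4:**
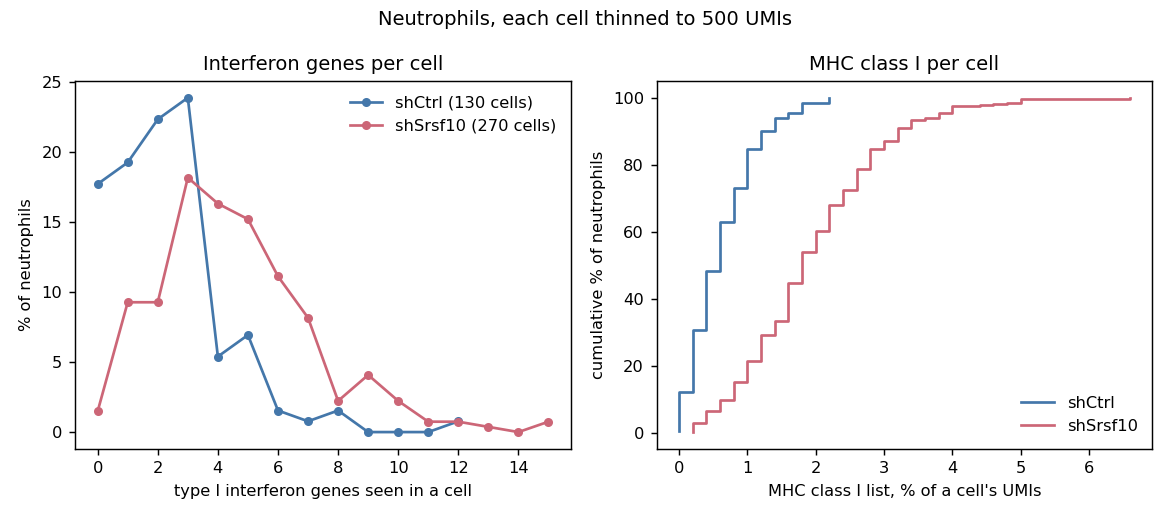
Left, the percent of neutrophils (y axis) by the number of type I interferon genes seen in a cell (x axis). Right, the cumulative percent of neutrophils (y axis) by the MHC class I list's percent of a cell's UMIs (x axis). All cells were thinned to 500 UMIs, 130 in shCtrl and 270 in shSrsf10. On the left the curves cross, with medians of 4 genes in shSrsf10 and 2 in shCtrl. On the right the shSrsf10 curve is shifted to higher values, with medians of 1.8% against 0.6% of UMIs.

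Within each library the clearest relation among neutrophils was between the S100 share and maturity genes. Spearman's rho of the S100a8 and S100a9 share with the late marrow and blood list was 0.59 over 130 shCtrl and 0.50 over 270 shSrsf10 cells, and with the tumour-adapted list -0.44 and -0.38, and the late and tumour-adapted lists had -0.35 and -0.37 with each other. These are shares of the same 500 UMIs of a cell, so one that is high lowers the others, and the cells were chosen on the S100 share. The type I list had 0.12 and 0.34 with the interferon gamma list, which share 1 gene, and 0.09 and 0.33 with the MHC class I list, which share none. With the S100 share the type I list had 0.13 and -0.03, the interferon gamma list -0.08 and -0.18 and the MHC class I list -0.18 and -0.40. With the liver and epithelial markers the type I list had -0.08 and 0.01. Weak values in such sparse counts do not count as a relation.

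Other cells of the same suspensions were measured alike. The type I median was 1.55 in neutrophils (16 genes), 0.90 in Cd3-marked cells (20 genes), 0.86 in keratin-high cells (24 genes) and 0.03 in monocyte-marked cells (11 genes). For interferon gamma genes the order differed, with 2.30 in keratin-high cells, 1.94 in neutrophils, 0.72 in monocyte-marked and 0.64 in Cd3-marked cells. The MHC class I medians were 1.54, 1.44, 0.51 and 0.58 in neutrophils, keratin-high, monocyte-marked and Cd3-marked cells. For receptors of microbes and antibody the neutrophils stood at 0.69 and the other 3 at 0.07, -0.05 and -0.09. In the early neutrophil-lineage cells, which held over 2 UMIs of the early granule genes, this median was 0.89 over 3 measured genes and the type I median 0.51 over 3, from only 4 shCtrl and 6 shSrsf10 cells. These populations differ in depth and in the genes that reach 30 UMIs, and with 1 library a group the differences between them could not be tested. The monocyte-marked cells also differed in make-up between the libraries. Their primary granule genes, Mpo and Elane among them, summed to 376 CPM in shCtrl and 4429 CPM in shSrsf10. Their macrophage markers were at 2843 and 972 CPM. Their medians therefore do not compare like cells.

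Isg15 was at 1380.5 and 4786 CPM in neutrophils, 338 and 346 CPM in monocyte-marked cells, 304 and 279 CPM in Cd3-marked cells and 20.7 and 32.3 CPM in keratin-high cells, each as shCtrl and shSrsf10, so among Cd3-marked cells it was not higher in shSrsf10. Fcgr4 was at 52.7 and 88.6 CPM in monocyte-marked cells, against 30.7 and 479 CPM in neutrophils. Only 51 shCtrl and 66 shSrsf10 cells carried the monocyte marks, so their values rest on few cells.

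**Figure D5:**
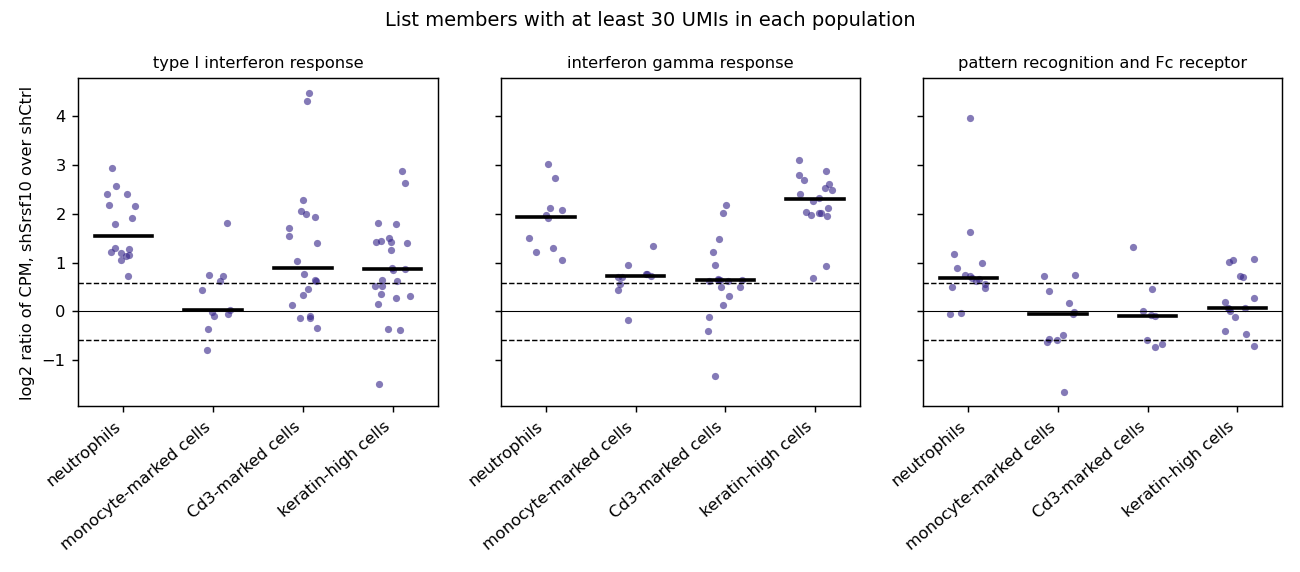
Log2 ratio of CPM (y axis, shSrsf10 over shCtrl) of the members of 3 gene lists with at least 30 UMIs in each population (x axis), 1 point a gene, with medians as black bars and dashed lines at 1.5-fold. In neutrophils the type I median is 1.55 and the pattern recognition and Fc receptor median 0.69, against 0.03 and -0.05 in monocyte-marked cells. The monocyte-marked cells differed in make-up between the libraries.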

How the data were processed

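The authors deposited 1 matrix of UMI counts per library, whole numbers per gene and barcode for 32285 features, not normalized. Cell Ranger 6.1.0 and build mm10 are named in the submitters' processing notes. The lowest total per barcode was 500 UMIs in both files, and whether the authors filtered at that depth is not given in the sources used here.

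The members, gene lists and alternatives were chosen with earlier results of these data known. From the deposited counts, UMIs were summed over the neutrophils of each library and scaled to CPM, with no filter on doublets in the values given. Ratios were given for genes with at least 30 UMIs over both libraries, and 24 lists of function and 16 of other cell types were counted at 1.5-fold. CPM carry exact Poisson intervals, ratios exact conditional binomial intervals and shares exact Clopper-Pearson intervals, all at 95%. A gene at 0 in 1 library was set against a floor of 3 counts over that library's neutrophils. The ratios and their intervals were run on simulated independent Poisson counts at the summed depths. That simulation held no separate cells, so it could not show how the intervals hold where UMIs are gathered in few cells. Where 38 symbols had several gene IDs, the counts of the ID with more UMIs were used.

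Up to 4 members of each list with the largest ratios were named, with a fixed set (Srsf10, Slc2a1, Hk2, Ldha, Cd274, Arg1, Il1b, Cxcr4, Siglecf, Isg15, Gbp2 and the genes of the cell rule) and the 12 highest and 12 lowest ratios. These last needed 50 UMIs, 100 CPM in 1 library, 10 cells and no cell with over 20% of a library's UMIs, and left out mitochondrial, ribosomal protein, receptor segment, sex-linked and unnamed genes. Further list members were named for what they encode after their values were seen.

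Keratin-high cells failed the keratin limit, Cd3-marked cells had at least 2 UMIs of the Cd3 genes, and monocyte-marked cells at least 3 of Lyz2 and 1 of Csf1r or Ccr2, with none of the C1q or Cd3 genes and S100a8 and S100a9 under 1%. Coordinates are from GENCODE vM21 (GRCm38) and promoters from RefSeq (GRCm38.p6). Python 3.11.15, numpy 2.4.6, scipy 1.17.1, pandas 2.3.3 and scanpy 1.11.5 (Scrublet) were used. Splicing was not analysed here, and some list members are not reported here by name.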

Additional observations from a re-analysis of the deposited data

Results flagged for a closer look

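The type I interferon list was also higher in shSrsf10 in barcodes that the neutrophil rule left out. In the barcodes with S100a8 and S100a9 at 1% of UMIs or more that exceeded the keratin limit, 20 in shCtrl and 12 in shSrsf10, the list's summed CPM was 4074 and 10352, a log2 ratio of 1.35 (1.09 to 1.61). In the barcodes under the S100a8 and S100a9 limit with at least 3 UMIs of Csf3r, Cxcr2, G0s2 or Retnlg, 38 and 48, it was 6476 and 16629 CPM, a log2 ratio of 1.36 (1.19 to 1.53). These came to notice as a signal in barcodes that no comparison of the neutrophils used, and the intervals cover counting error only.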

How the results depend on the processing

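No paired analysis was possible because each group has 1 library. Under the other choices of cells, the fold between the neutrophil shares was between 2.40 and 3.20, except for 7.10 (3.93 among keratin-low cells) in the 28 and 156 neutrophils with no UMI of Alb, Afp, Apoa1, Ttr or Trf, an alternative chosen after seeing the data, as were no keratin limit and S100 shares of 1 to 5%. Among keratin-low cells the lowest fold was 1.33, against 1.47 in the main setting. The type I interferon, interferon gamma and MHC class I medians kept their direction under every alternative run, at 1.30 to 2.55, 1.52 to 2.82 and 1.35 to 1.80. The counts of higher and lower genes were 158 and 107 at 100 UMIs, 1170 and 2745 at 1 UMI in each library, 132 and 99 in the 15 and 37 cells with 500 genes, 233 and 173 at S100 shares of 1 to 5%. The lower count alone was 183 at an S100 share of 5%, 158 without liver marker UMIs, 427 at 20 UMIs and 104 without genes higher in keratin-high cells. The tumour-adapted median was -0.70 with 500 genes and 0.29 at S100 shares of 1 to 5%, and the stress median 0.77 with 500 genes. Among named genes at least 1.5-fold apart, signs turned for Krt18 (0.046 at an S100 share of 5%), Itgb2 and Cd80 (-0.21 and 0.0023 without liver marker UMIs) and Retnlg (0.79 at 1 to 5%). The share of cells with Ccl4 turned too (0.535 points more in shSrsf10 at 1000 UMIs, over 17 and 55 cells). Values within 1.5-fold also changed sign, among them Cxcr4 (-0.40 to 0.88), Ldha (-0.38 to 0.092) and the chemokine, glycolysis and hypoxia medians. The causes were not tested beyond the fewer genes or cells measured. Of the genes past 1.5-fold, 57.0% were higher. Centring ratios on the all-gene median of 0.17 gave 295 higher and 356 lower (45.3% higher), and 1 UMI in each library 29.9%. Leaving out genes higher in keratin-high cells gave 75.6%, by a choice that uses the same neutrophil CPM as the ratio. Removing the highest Scrublet scores took 2 and 3 neutrophils. Scrublet's automatic threshold marked 0 and 200 barcodes. Depth limits what can be given: a gene under 30 UMIs has no ratio, and genes near 30 UMIs have wide intervals.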
